A study of Sus scrofa with 6 samples.

Results

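VCP, the gene of the ubiquitin-directed ATPase p97, and SPRTN, the gene of a protease that binds it, were examined in porcine 2-cell embryos together with the genes of known VCP cofactors. Members were the rows of the deposited table whose gene name equals 1 of 9 chosen genes. 8 of the 9 were found among 17678 genes, namely VCP, SPRTN, NPLOC4, UFD1, FAF1, FAF2, NSFL1C and UBXN1, and UBXN7 was not found by name. As 3575 of the 17678 rows carry no gene name, UBXN7 may be among those. VCP and SPRTN had been chosen because their values fell after SIN3A knockdown, so their differences between the groups are given as a description and carry no test. The 6 cofactors were not chosen by their values, but their list was made with earlier results of these data known. Of the 6, 5 were abundant enough to be tested.

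The control group (NC) came from oocytes injected with non-specific siRNA, and the knockdown group (KD) from oocytes injected with siRNAs against SIN3A, of which 3 were designed to different sites. In both groups matured oocytes of slaughterhouse ovaries from crossbred pigs were injected and then activated without sperm, so all embryos are parthenogenetic and lack a paternal genome. RNA was taken 32 h after activation from 3 replicates per group, each a pool of 20 embryos. Poly(A) RNA was sequenced, and the values are the authors' normalized abundances per gene, listed throughout in the order of replicates 1 to 3.

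VCP is an ATPase that uses ATP to pull ubiquitin-tagged proteins out of membranes, chromatin and complexes, so that the proteasome or other enzymes can act on them. It is recruited to its substrates by cofactors: UFD1 and NPLOC4 form a dimer that reads ubiquitin chains, and NSFL1C (p47) serves membrane fusion. NSFL1C, FAF1, FAF2, UBXN1 and UBXN7 carry a UBX domain that docks on VCP. SPRTN is a DNA-bound metalloprotease that cuts proteins crosslinked to DNA and holds a VCP-binding motif. At this stage the pig embryo still lives mainly on messenger RNA stored by the oocyte, because its own genome is activated later.

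The targeted gene was low in every KD library, where SIN3A stood at 3.12% to 12.1% of its NC mean. The depth estimated from the spacing of low values was 7.82 to 12.9 M reads in NC and 10.2 to 15.8 M reads in KD. Of 13 oocyte markers 10 were found, with summed values of 90563 to 100408 in NC and 87004 to 109539 in KD. By limma 0 of the 9 tested passed the adjusted p, beside 0.159% of all tested genes. Of 15 markers of the cumulus cells that surround the oocyte 11 were found, with summed values of 98.7 to 111 in NC and 84.5 to 119.6 in KD, and 8 of these 11 had a mean under 10.

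VCP (ENSSSCG00000005300) maps to chr1:235854532-235869712 (Sscrofa11.1, minus strand), and the longest of its 3 RefSeq mRNAs has 17 exons and 3360 bases. The NC libraries gave normalized abundances of 143, 217 and 148, against 48.5, 25.3 and 61.9 for the KD libraries. Every KD value lay below every NC value, and NC replicate 2 stood above the other NC libraries. Averages were 169 ± 41.5 for NC against 45.2 ± 18.5 for KD (SD, n = 3 each), so that 26.7% of the NC mean remained. On the log2(value + 1) scale KD was lower by a difference of -1.95, and this scale slightly understates the change at such low values. These values stand for about 137 to 172 reads in NC and 35 to 56 in KD, while every tested cofactor had at least 113 reads in each library. NC replicate 2, with the highest VCP value, was the shallowest library at 7.82 M reads, and KD replicate 2, with the lowest, was the deepest at 15.8 M reads. The part of depth in the VCP difference was not tested. In pooled embryos a loss of transcript in all embryos and a stronger loss in some of them cannot be told apart. The values are normalized between libraries, so a change in total RNA per embryo cannot be seen in them.

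SPRTN (ENSSSCG00000040087) maps to chr14:59177801-59192221 (minus strand), with 1 RefSeq mRNA of 5 exons and 1993 bases. Abundances were 736, 644 and 691 for NC, against 406, 334 and 455 for KD. Again no KD library reached the lowest NC library. They averaged 690.2 ± 46.2 and 398 ± 61.2 (SD, n = 3 each), with 57.7% of the NC mean remaining and a log2 difference of -0.80. Across all 11986 genes tested, 1.08% had a log2 difference of -0.8 or lower and 4.94% had every KD value below every NC value. By limma 0.1% were called lower. As both genes were picked for this fall, nothing is read from that background.

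**Figure D1:**
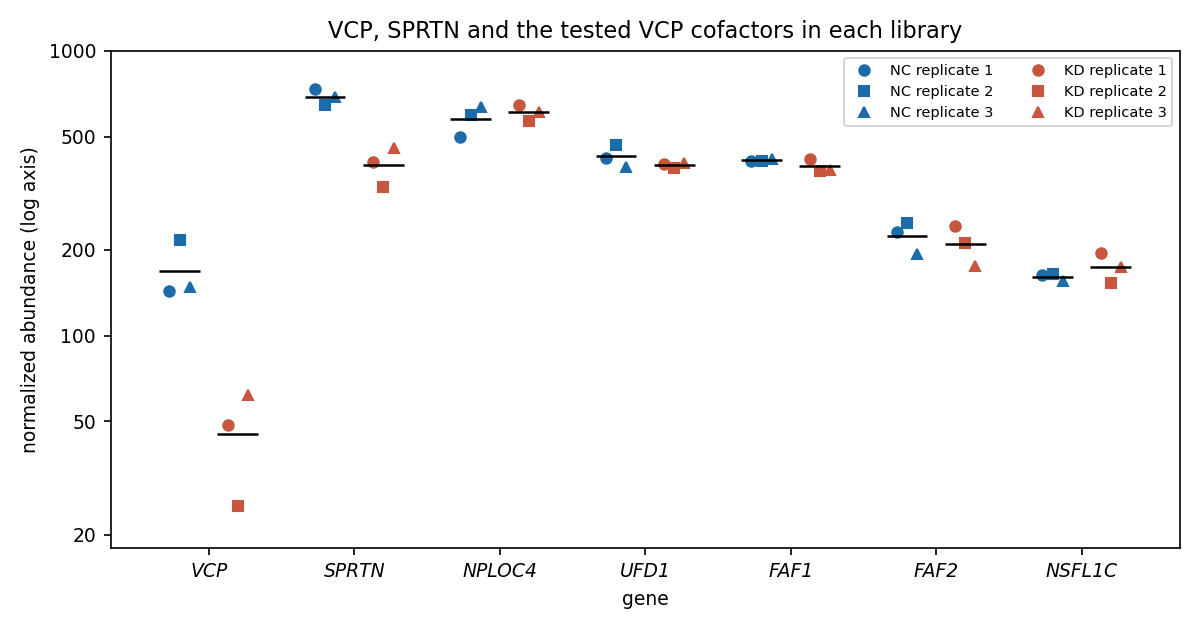
Normalized abundance (log axis) of VCP, SPRTN and 5 cofactors in each of the 3 NC and 3 KD libraries, with bars at the group means. The KD points of VCP (25.3 to 61.9) and SPRTN (334 to 455) lie below all NC points, and the groups of the 5 cofactors overlap. Groups did not overlap in 9.79% of all tested genes.

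VCP and SPRTN shared the order of the KD libraries. Both were lowest in KD replicate 2, intermediate in replicate 1 and highest in replicate 3, and so was SIN3A. Of the NC mean, VCP kept 28.6%, 14.9% and 36.6% in the KD libraries. SPRTN kept 58.9%, 48.3% and 65.9%, and SIN3A 9.46%, 3.12% and 12.1%. The same order was found in 19.0% of all tested genes and in 1 of the 5 tested cofactors, UFD1. Estimated depth ran the other way, at 11.8, 15.8 and 10.2 M reads in KD replicates 1 to 3. The part of depth in this order was not tested. In the NC libraries VCP and SPRTN did not run together: NC replicate 2 had the highest VCP value and the lowest SPRTN value. The ratio of SPRTN to VCP was 5.15, 2.96 and 4.68 for NC, against 8.38, 13.2 and 7.35 for KD. VCP lost a larger share of its value than SPRTN in each KD library.

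The transcripts of both subunits of the ubiquitin-binding dimer overlapped between the groups. So did most transcripts, as the groups did not overlap in 9.79% of all tested genes. NPLOC4 (ENSSSCG00000024235, chr12:1251377-1285668) gave 497, 593 and 637 for NC, against 646, 568 and 612 for KD. NC replicate 1 was its lowest library, and the groups overlapped. The log2 difference of NPLOC4 was 0.09 (standard error, SE, 0.12, 95% confidence interval, CI, -0.17 to 0.34, limma adjusted p = 0.997). UFD1 (ENSSSCG00000010121, chr14:51113858-51132820) gave 419, 468 and 390.2 for NC, against 399, 389 and 402 for KD. Its highest library was NC replicate 2, and the KD libraries lay close together. The log2 difference of UFD1 was -0.10 (SE 0.12, 95% CI -0.36 to 0.16, limma adjusted p = 0.997). Within a library, the ratio of UFD1 to NPLOC4 was 0.613 to 0.844 in NC and 0.618 to 0.684 in KD.

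The UBX domain cofactors also overlapped between the groups, as most tested genes did (9.79% did not). FAF1 (ENSSSCG00000003877, chr6:161173915-161603731), an adaptor between ubiquitylated proteins and VCP, gave 411, 412 and 416 for NC, against 417, 379.6 and 381 for KD. The NC values of FAF1 were nearly equal, and KD replicate 1 was the highest library of all. FAF2 (ENSSSCG00000014057, chr2:81401852-81454272), which sits in the membrane of the endoplasmic reticulum and of lipid droplets, gave 232, 248 and 193 for NC, against 243, 211 and 176 for KD. In both groups replicate 3 was its lowest library. NSFL1C (ENSSSCG00000007187, chr17:33869487-33890873) gave 164, 165 and 155 for NC, against 196, 153 and 175 for KD. The KD values of NSFL1C lay on both sides of the NC values.

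The log2 difference was -0.07 for FAF1 (SE 0.12, 95% CI -0.33 to 0.18), -0.10 for FAF2 (SE 0.16, 95% CI -0.45 to 0.25) and 0.11 for NSFL1C (SE 0.16, 95% CI -0.24 to 0.45), with limma adjusted p = 0.997 for all of them. UBXN1 (ENSSSCG00000023110, chr2:9072549-9075595), which binds ubiquitin chains and VCP, was near the detection limit at 7.72, 4.03 and 6.20 for NC and 8.21, 11.5 and 0 for KD. Its mean of 6.27 was below the minimum of 10 for testing, so a difference in UBXN1 was not detectable at this depth.

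By limma, 0 of the 5 tested cofactors passed the adjusted p, and 0 had an unadjusted p below 0.05, beside 0.159% and 4.61% of all 11986 tested genes. By direction, 0.1% of the tested genes were called lower and 0.0584% higher. The exact two-sided permutation test gave p = 0.3 to 0.6 for the 5 cofactors, where 3 replicates against 3 cannot go below 0.1. A p that misses the threshold does not show equal levels, but the intervals bound the change. The lowest bound among the 5 cofactors was a log2 difference of -0.45, for FAF2. VCP and SPRTN, which were chosen for their fall, differed by -1.95 and -0.80. The largest cofactor difference of either sign was 0.11, and 45.6% of all tested genes lay as close to 0.

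**Figure D2:**
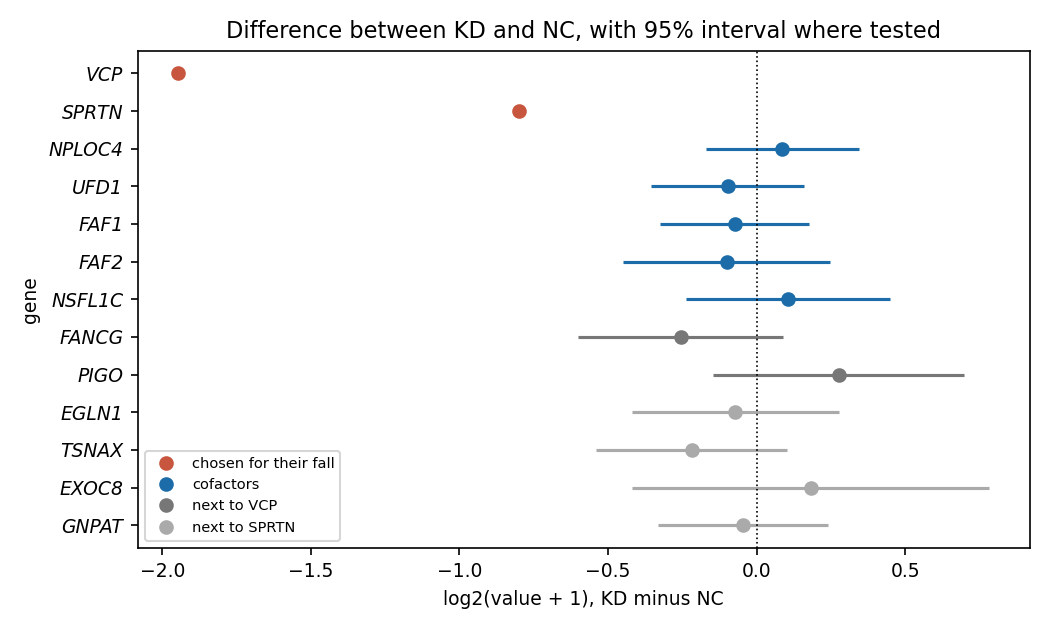
Difference between KD and NC on the log2(value + 1) scale for VCP and SPRTN (points, no test), 5 cofactors and 6 genes next to VCP or SPRTN in the genome (points with 95% intervals from limma). All 11 intervals include 0, and VCP (-1.95) and SPRTN (-0.80), which were chosen for their fall, lie to the left of them.

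VCP and SPRTN were also expressed as a share of the cofactors of the same library, which describes the same chosen difference on another scale and adds no support to it. The summed value of the 5 tested cofactors was 1722 to 1887 in NC and 1700.3 to 1901 in KD. VCP amounted to 8.30%, 11.5% and 8.25% of that sum for NC, against 2.55%, 1.49% and 3.55% for KD. SPRTN amounted to 42.7%, 34.1% and 38.6% in NC and to 21.4%, 19.6% and 26.1% in KD. For both genes the KD shares lay below all NC shares.

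**Figure D3:**
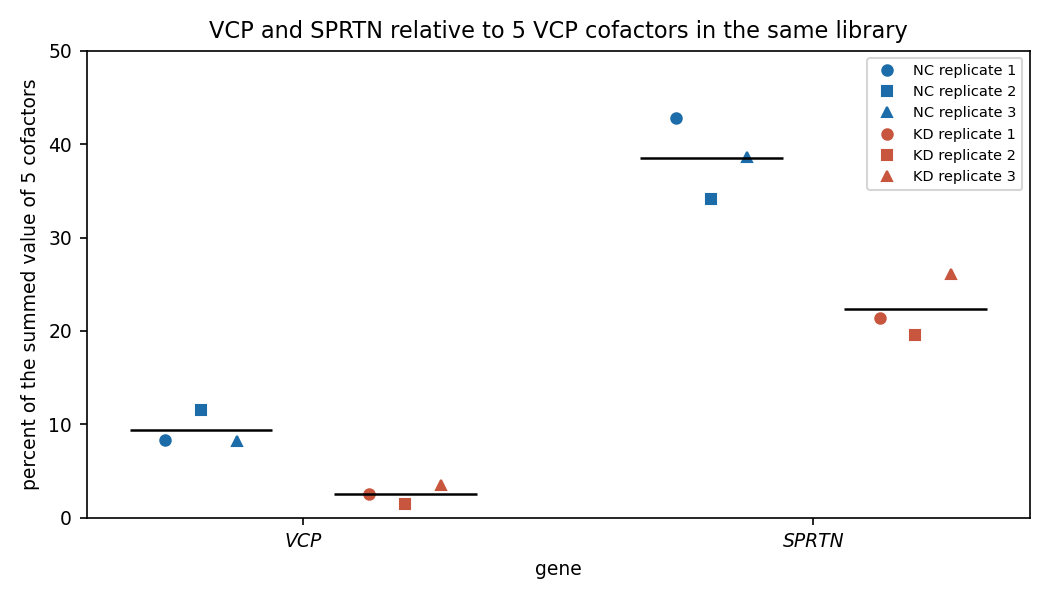
VCP and SPRTN as a percent of the summed value of 5 cofactors (NPLOC4, UFD1, FAF1, FAF2 and NSFL1C) in the same library, for 3 NC and 3 KD libraries, with bars at the group means. VCP was at 8.25% to 11.5% in NC and 1.49% to 3.55% in KD, and SPRTN at 34.1% to 42.7% and 19.6% to 26.1%.

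Levels were compared between genes per kilobase of the longest RefSeq mRNA. In NC embryos the order was SPRTN, UFD1, NPLOC4, NSFL1C, FAF1, VCP, FAF2 and UBXN1. SPRTN had 346 ± 23.2 per kilobase, UFD1 237 ± 22.0, NPLOC4 141 ± 17.6, NSFL1C 109 ± 3.63 and FAF1 86.4 ± 0.499 (SD, n = 3 each). VCP and FAF2, neighbours in that order, were at 50.4 ± 12.4 and 49.3 ± 6.26 per kilobase with overlapping libraries, and UBXN1 was at 5.32 ± 1.65. The libraries of the other neighbours did not overlap. Among 9657 tested genes with a single RefSeq model by name, 46.6% were below VCP in NC and 83.1% below SPRTN. Among these genes, which leave out those with a mean under 10, the VCP transcript was of middling abundance in control embryos. It was lower per length than those of UFD1 and NPLOC4.

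In KD embryos SPRTN and UFD1 changed places by their means, and so did VCP and FAF2. SPRTN had 199.9 ± 30.7 per kilobase and overlapped with UFD1 at 221 ± 3.95. VCP had 13.5 ± 5.52 per kilobase, below FAF2 at 46.1 ± 7.43 in every library. NPLOC4 at 149.5 ± 9.62, NSFL1C at 118 ± 14.4 and FAF1 at 82.2 ± 4.39 kept their NC order. UBXN1 stayed last by its mean of 5.83, but in KD replicate 2 it lay above VCP, at 10.2 against 7.52.

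The genes that flank VCP and SPRTN were examined next. Next to VCP lie FANCG, a Fanconi anaemia gene, at a distance of 1361 bases, and PIGO, an enzyme of the GPI anchor, at 10376 bases, both on the strand of VCP. FANCG gave 292, 307 and 239 for NC, against 286, 217 and 201 for KD, a log2 difference of -0.26 (SE 0.16, limma adjusted p = 0.997). The log2 difference of PIGO was 0.28 (SE 0.20, limma adjusted p = 0.997), and the groups of both genes overlapped. On the other side C1H9orf131 was not found by name, and DNAJB5, an HSP40 cochaperone, had means of 6.64 in NC and 3.12 in KD, too low to be tested.

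EXOC8, a subunit of the exocyst, starts 124 bases from SPRTN on the opposite strand. It gave 36.5, 38.0 and 49.7 for NC, against 48.6, 57.4 and 36.2 for KD, a log2 difference of 0.18 (SE 0.28, limma adjusted p = 0.997). Its groups overlapped, and the gene models of EXOC8 and SPRTN do not. Also around SPRTN were GNPAT, an enzyme of ether lipid synthesis, at -0.05 on the log2 scale and EGLN1, an oxygen-sensing hydroxylase, at -0.07. TSNAX, an RNA-processing factor, lay at -0.22. None of them passed the adjusted p, beside 0.159% of all tested genes. TSNAX was the only one of the 6 tested neighbours whose groups did not overlap, beside 9.79% of all tested genes.

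The promoters of the members were searched from 250 bases before to 50 bases after the start of the longest RefSeq mRNA, on both strands, for CCAAT, for the E-box CACGTG and for the GC box GGGCGG. VCP held 5 CCAAT matches, and none of the other 7 members found held any. At least 1 such match was present in 34.8% of 19560 promoters and 5 or more in 0.286%. The 5 stretches of the VCP promoter are shown because they set it apart from the cofactor promoters. They are written 5′ to 3′ on the minus strand of Sscrofa11.1, with the match to CCAAT or its complement ATTGG in capitals and the position of its first base from the RNA start in the name.
VCP -222, chr1:235869917-235869946: ttcctttcgttgATTGGtcgagagtcccaa
VCP -208, chr1:235869903-235869932: tggtcgagagtcCCAATccgtcgaggaagc
VCP -178, chr1:235869873-235869902: gtagcgttgcggCCAATtgacgtggcgtta
VCP -108, chr1:235869803-235869832: gcgaatttcctgATTGGctctggtccgcgg
VCP -34, chr1:235869729-235869758: gggcaggcgctgATTGGctgagttgtgagc

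The GC box was held by 5 of the 8 members found, VCP, SPRTN, FAF2, NSFL1C and UBXN1, beside 48.6% of all promoters. The SPRTN window reaches past the start of EXOC8, 124 bases away, and its match lies between the gene models of SPRTN and EXOC8. The match of SPRTN is shown because it was the only match to any of the 3 motifs in its window, on the minus strand with the match in capitals.
SPRTN -66, chr14:59192270-59192299: gaagcgagtggaGGGCGGagcagcgaggtg
The E-box was present in 1 member, UBXN1, and in 7.46% of all promoters, so VCP and SPRTN shared the GC box alone. These matches describe the letters of the window and were not tested as binding sites.

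Stored messenger RNAs of oocytes are kept with short poly(A) tails, which are lengthened when proteins bind cytoplasmic polyadenylation elements in the 3′ UTR. The element TTTTAT had 1 match in the 562 bases of the VCP 3′ UTR and 2 matches in the 251 bases of that of SPRTN. FAF2 had 3 matches in 3065 bases, NPLOC4 1 in 2097 and UFD1 1 in 730, and FAF1, NSFL1C and UBXN1 had none in their annotated UTRs. A match was present in 50.9% of 18182 genes with an annotated 3′ UTR. A polyadenylation hexamer, AATAAA or ATTAAA, stood in the last 100 bases of 7 of the 8 members and in 69.1% of these genes, and SPRTN was the exception. As libraries were made with oligo(dT) beads, a shorter poly(A) tail and fewer transcripts cannot be told apart.

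The wider VCP network was read from 4 lists of genes. Of 24 further VCP-binding proteins 18 were tested, and 0 passed the adjusted p by limma, with 1 at an unadjusted p below 0.05, beside 0.159% and 4.61% of all tested genes. Their median log2 difference was -0.067, beside 0.0026 for all tested genes. The largest fall was that of SELENOS, a selenoprotein that anchors VCP at the endoplasmic reticulum, with 73.3, 64.7 and 81.9 for NC, against 49.7, 48.5 and 31.6 for KD. Its groups did not overlap, and its log2 difference was -0.77 (SE 0.26, limma adjusted p = 0.852). The largest rise was that of UBXN6, another UBX protein, from 263 ± 10.8 to 308 ± 12.2 (SD, n = 3 each), a log2 difference of 0.23 (SE 0.13, limma adjusted p = 0.997). In 4 of the 18 genes the groups did not overlap, beside 9.79% of all tested genes.

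Of 24 genes of endoplasmic-reticulum-associated degradation and proteasome shuttling, the route that delivers misfolded proteins to VCP and onward, 22 were tested. By limma 0 passed the adjusted p and 1 had an unadjusted p below 0.05, beside 0.159% and 4.61% of all tested genes. Their median log2 difference was -0.019. HERPUD1, a stress-induced scaffold of the ubiquitin ligase, had the lowest difference at -1.06 (SE 0.55, limma adjusted p = 0.997), with overlapping groups and low values of 12.8 to 24.0 in NC and 4.69 to 20.7 in KD. The difference of HERPUD1 was -1.63 without KD replicate 2, -0.67 without KD replicate 3 and -0.60 with a pseudocount of 10. EDEM3, a mannosidase that marks misfolded glycoproteins, had the highest at 0.52 (SE 0.23, limma adjusted p = 0.997), with 51.8, 52.2 and 47.4 in NC and 80.0, 62.9 and 77.3 in KD. The KD values of EDEM3 all lay above the NC values, as in 4.85% of all tested genes.

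For the DNA side of the pathway, 17 of 23 genes of DNA-protein crosslink repair and replisome unloading were tested, and by limma 0 passed the adjusted p and 0 an unadjusted p of 0.05, beside 0.159% and 4.61% of all tested genes. Their median log2 difference was 0.00053, and the extremes were CUL2, a ubiquitin ligase scaffold, at -0.46 (SE 0.48) and TEX264, a VCP and SPRTN partner at the nuclear envelope, at 0.47 (SE 0.37). Both were low, with 14.5 to 27.5 in NC and 7.20 to 40.4 in KD over the 2 genes. Of 10 AAA ATPases related to VCP, 8 were tested. By limma 0 passed the adjusted p and 1 had an unadjusted p below 0.05, beside 0.159% and 4.61% of all tested genes, and the median log2 difference was -0.031. NSF, a membrane fusion ATPase, had 936, 866 and 835 in NC and 1012, 1112 and 1014 in KD, a log2 difference of 0.25 (SE 0.10, limma adjusted p = 0.997). KATNA1, the microtubule-severing katanin, had the lowest at -0.10 (SE 0.18).

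**Figure D4:**
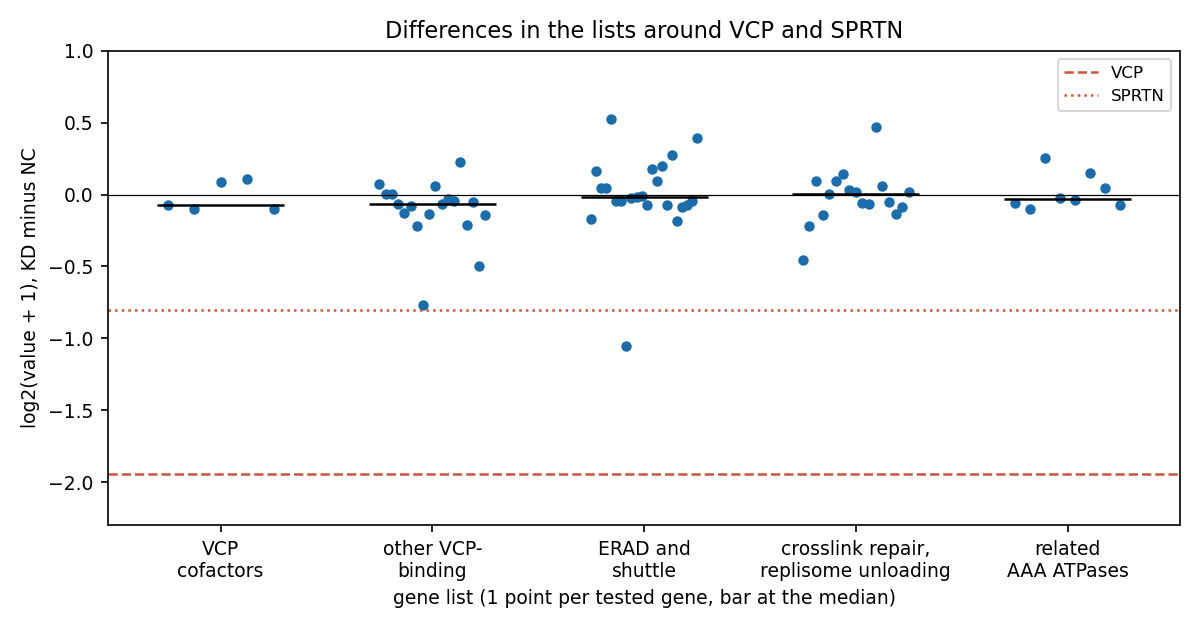
Difference between KD and NC on the log2(value + 1) scale for each tested gene of the cofactors and the 4 lists (18, 22, 17 and 8 genes), with bars at the medians and lines at VCP (dashed) and SPRTN (dotted). The lowest point is HERPUD1 at -1.06, which ranged from -1.63 to -0.67 when 1 library was left out.

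Among all other tested genes, the 3 whose profile over the 6 libraries was closest to VCP were WDR47, LIMA1 and CCNB1, with a root mean square difference of 0.25, 0.36 and 0.36 on the log2 scale after each gene was centred on its NC mean. CCNB1 is the cyclin that drives entry into mitosis, and LIMA1 binds actin. WDR47, a microtubule-associated protein, gave 8111, 7076 and 6393 for NC, against 1858, 1261 and 2751 for KD. The median distance of all genes to VCP was 1.46, and SPRTN stood at 0.88, as the 47th closest of 11985 genes. Measured from SPRTN the median was 0.62, so VCP at 0.88 was farther away than the median gene, at place 10762. Closest to SPRTN were TWF1, which caps actin filaments, at 0.10, NEK11, a checkpoint kinase, at 0.11 and LETMD1, a mitochondrial membrane protein, at 0.12. TWF1 gave 2351, 1943 and 1837 for NC, against 1286, 942 and 1256 for KD. These genes differ between the groups as VCP and SPRTN do, and the likeness is a description.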

How the data were processed

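Salmon 0.14.1 and DESeq2 are named in the submitters' processing notes. From these the authors deposited a table of normalized signal per Ensembl gene (Sscrofa11.1) for all 6 libraries. Low values clustered near multiples of 1 step per library, but 12.1% to 39.7% lay within 0.01 of a step, too few to restore whole numbers of reads, and tests for counts were left aside. Depth and read numbers are estimates from that step, and the lower the number, the less precise the value.

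Groups come from the sample titles. Genes with a mean of at least 10 entered a linear model of log2(value + 1) fitted by limma 3.58.1 (R 4.3.3), with a variance trend and Benjamini-Hochberg adjustment, and called at an adjusted p below 0.05. The fit was tested on simulated data. Single genes were compared with the exact permutation test of scipy 1.17.1. Members and lists were chosen with earlier results of these data known. Named were all members, the nearest 2 protein-coding genes on each side of VCP and SPRTN, the 3 closest profiles, and the largest rise and fall of each list. Positions, lengths and sequences come from RefSeq on Sscrofa11.1, whose gene names matched all 8 members and 80.6% of the tested genes. Alternatives were other pseudocounts, no filter, 2 scalings, a fit lacking the variance trend, a block for the replicate number and omission of each library in turn. Spike-in RNA and protein sequences were not used here. The siRNA sequences were not analysed here. P-values set a difference against the spread between the pooled replicates, which limma moderates with the spread of all tested genes.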

Additional observations from a re-analysis of the deposited data

How the results depend on the processing

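The 5 tested cofactors and the 4 lists had 0 genes past the adjusted p in every alternative run. Of all genes 19 passed, 23 without a filter, 14 with quantile normalization and 0 without the variance trend, where 622 had an unadjusted p below 0.05. When 1 library was left out the count ranged from 11 to 19, with 12 without NC replicate 2 or 3 and 11 without KD replicate 1 or 2. The cause was not tested.

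The log2 difference of VCP was -2.21 to -1.58 and that of SPRTN -0.90 to -0.68 when 1 library was left out, with the smallest sizes without KD replicate 2. With a pseudocount of 10 they were -1.74 and -0.79. For 19 single genes 247 comparisons with an alternative were made, of which 242 kept direction and side of the threshold. The other 5 turned direction near 0: NPLOC4 at -0.015 and GNPAT at 0.020 without NC replicate 1, EGLN1 at 0.013 without NC replicate 2, and FAF2 at 0.021 and GNPAT at 0.067 without KD replicate 3. Over the 6 omissions the range was -0.015 to 0.16 for NPLOC4, -0.21 to 0.021 for FAF2, -0.14 to 0.013 for EGLN1 and -0.14 to 0.067 for GNPAT. Other differences that moved by over 1.5 times ranged from -0.16 to -0.027 for UFD1, -0.12 to -0.051 for FAF1, 0.020 to 0.20 for NSFL1C, -0.41 to -0.15 for FANCG, 0.16 to 0.38 for PIGO, 0.034 to 0.36 for EXOC8, -0.27 to -0.13 for TSNAX, -1.63 to -0.67 for HERPUD1, 0.25 to 0.71 for TEX264, -0.75 to -0.21 for CUL2 and -0.18 to -0.048 for KATNA1.

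Adding a replicate block to the model gave 26 genes. Same-numbered libraries correlated at 0.109, 0.111 and 0.087 after subtraction of the group means, and differently numbered ones at -0.083 to -0.021. The sample titles state no pairing, so the main fit held no block. Whether the numbers mark shared batches was not tested. VCP at 35 to 56 reads per KD library and UBXN1 at 0 to 16 reads are limited by depth.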
